A study of Mus musculus with 19 samples.

Results

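The comparison set 8 control libraries of an FMRP CLIP experiment against 3 noCre libraries that measure the background of its purification, 11 of the 19 libraries of the series. They were chosen by title: 4 control libraries labelled 30 min, 4 labelled 5 min, and the noCre libraries, which have no time label. All were made from acute slices of mouse hippocampal CA1. A further label calls the files of the 5 min libraries new, and this cannot be told apart from time. The control libraries came from Camk2a-Cre x Fmr1 cTag tissue given the AAV-Control vector, with cells labelled Camk2a-Cre+. The noCre libraries carry the same genotype and cell type labels, and only their titles, library names and treatment label (noCre) mark them as lacking Cre; no vector is given for them. The labels give no age, and do not say whether libraries came from separate animals, so p-values measure the spread between libraries, which may be technical. The remaining 8 libraries, called opto, came from tissue of the same genotype given AAV-ChR2, which carries a light-gated channel, and served only to rank transcripts and to show values outside the comparison.

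FMRP, the protein lost in fragile X syndrome, binds messenger RNA in neurons and is known as a repressor of translation, with many targets among long neuronal mRNAs. In CLIP, ultraviolet light joins a protein to the RNA it touches, the protein is purified, and the RNA fragments that come with it are read as tags. With the cTag allele, FMRP carries a tag for purification in cells with Cre recombinase, here under the Camk2a promoter, which is active in excitatory forebrain neurons. Tissue without Cre makes no tagged FMRP, so RNA recovered from it is what the purification returns unspecifically. The question was which transcripts stand above that background in the controls.

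The files name transcripts by Ensembl ID. None of the 44418 IDs with a tag in these 11 libraries was found in the gene table used alongside, so transcripts are given by ID, without gene, position or sequence, and the markers of the labelled cell type were not analysed here. Values are whole-number tag counts. A share is a transcript's tags as a percent of all tags of its library, with absent transcripts taken as 0.

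The control libraries held 40173 to 341445 tags on 10538 to 29204 transcripts. The noCre libraries held 887 tags on 684 transcripts in replicate 1, 34 tags on 34 transcripts in replicate 2, and 5557 tags on 3182 transcripts in replicate 3. Even the shallowest control was thus 7.23-fold deeper than noCre replicate 3, and the deepest was 61.4-fold deeper. Replicate 3 held 85.8% of all noCre tags. Each noCre library was therefore read separately. A transcript without a tag was given 3 tags as its upper limit, a share of 0.0540% in replicate 3, 0.338% in replicate 1 and 8.82% in replicate 2. This limit is lower than the upper 95% Wilson limit for 0 tags would be. Transcripts without a noCre tag are thus placed above it more readily. Limits and intervals cover counting error only, since tags without molecular identifiers in the files may not be independent molecules.

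In raw tags, the deeper controls mostly held more than the noCre libraries, which their depth alone would give. A tag was present in every control for 6183 transcripts, and for 5535 of these (12.5% of all 44418) every control held more tags than every noCre library. For the other 648, a noCre library had at least as many tags as the lowest control. The reverse was rare: 82 transcripts (0.185%) had more tags in a noCre library than in any control. Of these, 72 were in no control at all and had at most 3 noCre tags. Only 11 of the 82 had 2 or more tags in the noCre library concerned, and ENSMUST00000083011 led them with 32 tags in noCre replicate 3. How much tissue and sequencing went into each library is not in the labels, so raw tags do not compare yields at equal input.

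As shares of the library, 0 of 2533 tested transcripts (0.0%) were called higher in the controls and 17 (0.671%) lower. The threshold was an adjusted p of 0.05 in edgeR's quasi-likelihood test with Benjamini-Hochberg adjustment (n = 8 control and 3 noCre libraries). The 0 does not show equal shares, because on library totals the noCre depth left little room for calls of higher. ENSMUST00000137823 had the smallest p on that side and 0 tags in every noCre library. At a log2 fold change of 9.59 (SE 2.60), a fitted value against 0 tags that is no bound, it did not pass (edgeR adjusted p = 0.140). Its log2 fold change was 1.50 with DESeq2's test and 1.02 with limma voom. At an unadjusted p under 0.05, 96 transcripts were higher and 109 lower in the controls. The median log2 fold change of control over noCre over the tested transcripts was 0.70. Of the tested transcripts, 1065 (42.0%) had 0 tags in all 3 noCre libraries, and 74 of these were among the 96. Transcripts could pass the filter on low counts through either group. The 1065 with 0 noCre tags, ENSMUST00000137823 among them, could pass only through the controls, the group where they are high. The count of 96 and the median thus rest in part on transcripts that the controls selected, and these counts do not cover all transcripts. The counts at an unadjusted p under 0.05 in edgeR's test moved with the filter. With a mean of at least 20 tags 91 were higher and 42 lower, and with no filter 113 were higher and 774 lower.

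This split rested on the scaling and on a single library. Scaled by TMM in place of library totals, 448 transcripts were higher and 4 lower in the controls, and the median log2 fold change was 2.35. With DESeq2 size factors 287 were higher and 4 lower, with a median of 2.20. TMM gave the 34-tag library a factor of 67.0, against 0.479 to 0.535 in the controls and 0.820 in noCre replicate 3. With that library left out, TMM called 398 higher and 3 lower, and with replicate 3 as the only noCre library 193 higher and 11 lower. Without noCre replicate 3, on library totals, 0 passed in either direction, with 1 transcript higher and 45 lower at an unadjusted p under 0.05, and without noCre replicate 1, 0 were higher and 26 lower. The direction and number of calls are therefore given below as values on library totals, beside the counts of each noCre library.

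The clearest excess of background belonged to ENSMUST00000083011. It had 32 of 5557 tags in noCre replicate 3, a share of 0.576% (95% Wilson interval 0.408 to 0.812%). The 30 min controls held 12, 22, 13 and 17 tags of it, and the 5 min controls 17, 5, 7 and 12. Their shares ran from 0.00498% to 0.0147%, a mean of 0.00934% ± 0.00345 (SD, n = 8), and none came near that of noCre replicate 3, which was 61.7-fold the mean. The fitted log2 fold change of control over noCre was -5.68 (SE 0.52, edgeR adjusted p = 3.19e-07), and the share in noCre replicate 3 was above 8 of 8 controls. With TMM scaling the log2 fold change was -4.07 (edgeR adjusted p = 0.000499). Replicate 1 had none among its 887 tags, where the limit of 3 tags is 0.338%. That limit is of another kind than the Wilson interval of replicate 3, so it does not show the noCre libraries to be apart. The transcript was named for its count in replicate 3, so its counts in the noCre libraries are a description. Without noCre replicate 3 the fold change turned to 6.48 (edgeR adjusted p = 0.806), a fitted value against 0 tags that is no bound, so the call rests on that library.

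ENSMUST00000112172 was the second by p among those lower in the controls. It had 9 tags in noCre replicate 3, or 0.162% (95% Wilson interval 0.0852 to 0.308%), and 0 in replicates 1 and 2. Control libraries held 12, 15, 16 and 19 tags at 30 min and 33, 5, 12 and 24 at 5 min, with a mean share of 0.0112% ± 0.00203 (SD, n = 8). All 8 control shares, 0.00779% to 0.0147%, lay below the interval of noCre replicate 3. The log2 fold change was -3.62 (SE 0.61, edgeR adjusted p = 0.00534). With TMM scaling it was -1.99 (edgeR adjusted p = 0.0444), and with noCre replicate 2 also left out -1.93 (edgeR adjusted p = 0.0536). It was 6.81 without noCre replicate 3 (edgeR adjusted p = 0.806), and with DESeq2's test and limma voom the adjusted p was 0.600 and 0.270. A further transcript among the 17 had counts within 1 tag of these in all 11 libraries, and tags of isoforms may have been listed under both.

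The 17 transcripts as a group had 7 to 44 tags each in noCre replicate 3, with a median of 9. The values that chose them include those libraries, so the sums that follow are a description. A single one of the 17 had a tag in noCre replicate 1, and none had one in replicate 2. Together they held 4.55% of the tags in noCre replicate 3 and 0.347% to 0.605% in the controls. In noCre replicate 1 they had 3 of 887 tags, or 0.338% (95% Wilson interval 0.115 to 0.990%), an interval that covers all 8 controls. At the share of replicate 3, replicate 1 would have held 40.4 tags of them. All 3 tags found in replicate 1 were of ENSMUST00000038863, named here because of that count, whose share of 0.338% there was above the highest control, 0.321%, though on 3 tags. Replicate 2 was too shallow to show any of them. The 17 include near-equal transcripts that may list the same tags: with those within 10% or 3 tags of each other in all 11 libraries kept once, 12 were left, which held 3.46% of the tags in noCre replicate 3 and 0.268% to 0.513% in the controls, and 30.6 tags would have been the count in replicate 1 at the share of replicate 3.

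**Figure D1:**
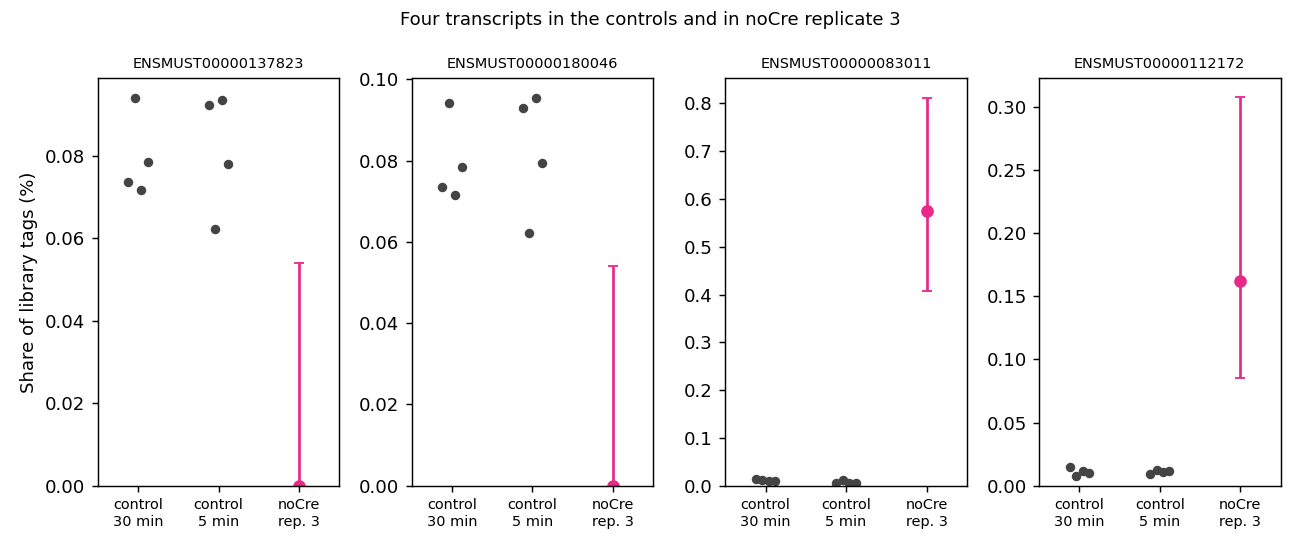
Share of library tags (percent, linear axis from 0, a separate scale in each panel) of the 2 transcripts with the smallest p in each direction, 4 in all. Grey points are single control libraries. The coloured point is noCre replicate 3 with its 95% Wilson interval or, at 0 tags, the limit of 3 tags. ENSMUST00000137823 and ENSMUST00000180046 have 0 tags in noCre replicate 3 and lie above its limit of 0.0540% in all 8 controls, while ENSMUST00000083011 and ENSMUST00000112172 lie below its interval in all 8.

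Toward the other side, ENSMUST00000137823 and ENSMUST00000180046 had the smallest p among transcripts with a higher share in the controls, and neither passed. ENSMUST00000137823 had 60, 181, 97 and 142 tags in the 30 min controls, 315, 25, 102 and 163 in the 5 min controls, and 0 in every noCre library. Its control shares of 0.0622% to 0.0940%, a mean of 0.0805% ± 0.0117 (SD, n = 8), were all above the limit of 3 tags in noCre replicate 3, 0.0540%. The mean was 1.49-fold that limit, a bound for counting error in 1 library that a Wilson limit would make smaller. The limits of replicates 1 and 2, 0.338% and 8.82%, gave no such bound, and the transcript did not pass (edgeR adjusted p = 0.140). With TMM scaling the adjusted p from edgeR was 0.00131. ENSMUST00000180046 had 0.0809% ± 0.0121 (SD, n = 8) in the controls and 0 noCre tags. Its mean was 1.5-fold the same limit of noCre replicate 3 alone (edgeR adjusted p = 0.140, and 0.00131 with TMM scaling). The pair had equal tags in 9 of the 16 Cre-positive libraries and differed by at most 3 in the others, so they may list the same tags and are not independent examples.

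Each transcript was then placed against the counting interval of each noCre library. It counted as above when its lowest control share exceeded the upper 95% Wilson limit there (or 3 tags of the total where it had 0), and as below when its highest control share was under the lower limit. This is a description of shares, with no test. Against noCre replicate 3, 12 transcripts (0.027% of 44418) were above and 1117 (2.51%) below, and 43289 (97.5%) could not be separated at this depth. Depth sets the first number: in only 110 transcripts did the lowest control share exceed the share that 0 tags allow. Of the 12, 6 had 0 tags in noCre replicate 3 and 6 had 2 to 6, and their mean control shares ran from 0.0682% to 0.445%. The 6 with 0 tags were held to the limit of 3 tags, 0.0540%, and a Wilson limit, which is higher, was not applied to them. Their lowest control shares ran from 0.0552% to 0.0784%, so under a Wilson limit they would not all count as above. None of the 12 passed edgeR's test (smallest adjusted p = 0.140). Several had near-equal counts: with transcripts within 10% or 3 tags of each other in all 11 libraries kept once, 7 of the 12 were left. With the mean of the controls in place of the lowest, 49 transcripts were above.

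Most transcripts on the lower side rested on a single tag. Of the 1117, 762 had 1 tag in noCre replicate 3, where a tag is 0.0180% of the library, and 59 were in no control. With the exact Clopper-Pearson interval in place of Wilson's the number was 266. At least 10 tags in noCre replicate 3 stood behind 17 transcripts. These were not the same 17 as the edgeR calls: 8 were in both sets. Of those with at least 10 tags, 3 had a tag in noCre replicate 1, and for 1 the share there was above every control.

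**Figure D2:**
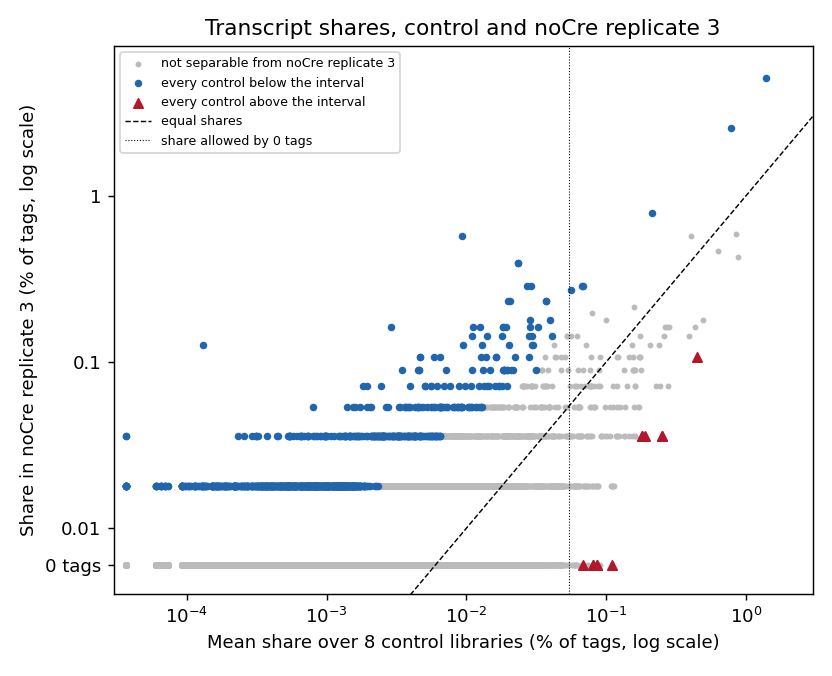
Share of library tags (percent, log axes) of each transcript as the mean of 8 controls (horizontal) and in noCre replicate 3 (vertical), with transcripts of 0 tags in noCre replicate 3 on a line of their own at the bottom and those in no control left out. The 12 transcripts above the interval lie right of the dotted line at 0.0540%, the share that 0 tags allow, and those below the interval lie above the dashed line of equal shares, in rows of 1, 2, 3 and more tags.

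The shallower noCre libraries separated fewer transcripts. Against noCre replicate 1, 1 transcript (0.00225%) was above and 434 (0.977%) below, of which 375 rested on 1 tag (145 below with the Clopper-Pearson interval). The 1 above was ENSMUST00000082390, named here because of that count. It had 0 of 887 tags, which allows up to 0.338%, against 0.878% ± 0.291 (SD, n = 8) in the controls, where the lowest library had 0.490%. The 30 min controls held 869, 1332, 1069 and 1415 tags of it and the 5 min controls 1673, 590, 879 and 1945. Replicate 3 of noCre held 24 tags, a share of 0.432% (95% Wilson interval 0.290 to 0.642%), which was below all 8 controls with an interval that reaches 1 of them, 5 min replicate 1, and replicate 2 held 1 of 34. Its log2 fold change of control over noCre was 1.26 (edgeR adjusted p = 0.528). It was thus recovered in both other noCre libraries, and the label of above held against replicate 1 alone.

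Replicate 2 could place no transcript above (0.0%), since even the most abundant transcripts are under the 8.82% it allows. All of its 34 tags fell on different transcripts, and 32 of these (0.072%) were below, since 1 tag is 2.94% of that library. Every one of the 34 transcripts was listed in a control, 15 were also in noCre replicate 3 and 6 in replicate 1. Grouping transcripts whose counts were within 5% or 1 tag of each other in every control left 32 groups, so a few of the 34 tags may be 1 tag listed under several isoforms. Over the tested transcripts, 195 (7.70%), in 94 sets, had counts identical to another transcript in all 11 libraries.

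The noCre libraries shared part of their transcripts. Replicates 1 and 3 had 273 in common, which is 39.9% of those in replicate 1 and 8.58% of those in replicate 3, and 6 transcripts were in all 3.

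To compare whole profiles, transcripts were ranked by their summed tags in the 8 opto libraries, and the share of tags in each rank class was compared. The opto libraries belong to neither group but are Cre-positive like the controls. Their ranking may therefore favour transcripts abundant in the controls over those abundant in noCre. The 10 most abundant transcripts held 6.70% ± 1.21 of the tags (SD, n = 8) in the controls, from 4.76% to 8.97%. They held 5.75% in noCre replicate 1 (95% Wilson interval 4.40 to 7.48%), 5.88% in replicate 2 (2 of 34 tags, 1.63 to 19.1%) and 10.4% in replicate 3 (9.63 to 11.2%). Only replicate 3 was above every control. The mean difference of control minus noCre was -0.64 percentage points (p = 0.618, exact two-sided permutation test over the 165 arrangements of 8 and 3 libraries).

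A pair of these 10 transcripts, chosen after their values were seen, had far higher shares in noCre replicate 3 than in any control. ENSMUST00000182010, the most abundant transcript by opto tags, had 287 tags there, or 5.16% (95% Wilson interval 4.61 to 5.78%). Its tags in the 30 min controls were 896, 2125, 2222 and 2329, and in the 5 min controls 2737, 908, 1615 and 3068, a mean share of 1.39% ± 0.441 (SD, n = 8) and at most 2.26%. In noCre replicate 1 it had 17 tags, or 1.92% (1.20 to 3.05%), within the range of the controls. The log2 fold change of control over noCre was -1.42 (SE 0.35, edgeR adjusted p = 0.0570), which missed the threshold. ENSMUST00000192717 had 143 tags in noCre replicate 3, or 2.57% (2.19 to 3.02%), against 0.786% ± 0.248 (SD, n = 8) and at most 1.24% in the controls (edgeR adjusted p = 0.267). In noCre replicate 1 its 3 tags made 0.338% (0.115 to 0.990%). That share was below every control, the lowest of which had 0.454%, with an interval that reaches most of them. Of the other 8 transcripts, 7 had a lower share in noCre replicate 3 than in every control and 1 was within their range.

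Ranks above 10 up to 100 set the noCre libraries apart from each other. The controls held 12.6% ± 0.665 (SD, n = 8), within 11.9% to 13.7%. NoCre replicate 3 held 6.30% (95% Wilson interval 5.69 to 6.97%), under every control, and replicate 1 held 15.9% (13.6 to 18.4%), above every control, though its interval reaches the highest of them. Replicate 2 had 5 of 34 tags, or 14.7% (6.45 to 30.1%). Because the noCre libraries deviated in opposite directions, the mean difference was 0.31 percentage points (p = 0.842, exact two-sided permutation test). Without noCre replicate 3 it was -2.70 (p = 0.0222, exact permutation test, the smallest p the arrangements of 8 and 2 allow).

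In ranks above 100 up to 1000 the controls held 28.4% ± 0.986 (SD, n = 8), noCre replicate 1 held 26.6% (95% Wilson interval 23.8 to 29.6%), and replicate 3 held 23.5% (22.4 to 24.7%), below every control. Replicate 2, with 12 of 34 tags, was at 35.3% (21.5 to 52.1%), above every control. Ranks above 1000 up to 10000 held 40.0% ± 1.68 (SD, n = 8) in the controls, 37.5% (34.4 to 40.8%) in noCre replicate 1, 38.2% (23.9 to 55.0%) in replicate 2 and 44.4% (43.1 to 45.7%) in replicate 3, which was above every control. The remaining transcripts held 12.3% ± 0.957 (SD, n = 8) in the controls, 14.2% (12.1 to 16.7%) in replicate 1 and 15.4% (14.4 to 16.3%) in replicate 3, both above every control, and 5.88% (1.63 to 19.1%) in replicate 2, below every control. In none of the 5 classes did the groups differ in the exact permutation test, with p from 0.618 to 0.958 and a Benjamini-Hochberg adjusted p of 0.958 in each (smallest possible p 0.00606). Without noCre replicate 2, the control share was 3.34 points higher for ranks above 100 up to 1000 (p = 0.0444), and beyond rank 10000 the difference was -2.48 points (p = 0.0222, both exact permutation tests).

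**Figure D3:**
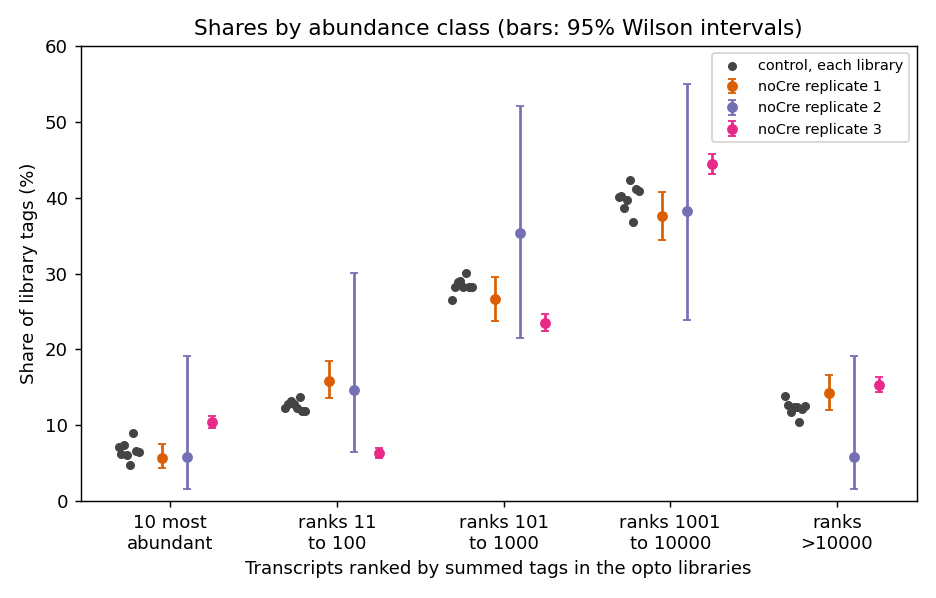
Share of library tags (percent, linear axis from 0) in 5 classes of transcripts ranked by summed tags in the opto libraries; grey points are the 8 control libraries and coloured points the noCre libraries with 95% Wilson intervals. NoCre replicate 3 lies above the controls in the 10 most abundant, at 10.4%, and below them in the next class, at 6.30%, where replicate 1 lies above them, at 15.9%.

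Among the 100 transcripts ranked first by the opto libraries, 81 had a share in noCre replicate 3 below every control, 14 were within the range of the controls, and 5 were above it. At the mean control share such a transcript would have had 3.79 to 77.4 tags in noCre replicate 3, and 7 had 0. By the interval rule 12 of the 100 were above noCre replicate 3 and 3 were below. Over the first 1000 transcripts, 579 had a share in noCre replicate 3 below every control, 250 were within their range and 171 above it. Of these 1000, 375 had 0 tags there. A ranking by Cre-positive libraries may itself tilt such counts toward the controls. In noCre replicate 1, 35 of the 100 had a share below every control, 16 were within their range and 49 above it, but the control share corresponds to 0.605 to 12.4 tags there, so single tags decide most of these positions. Across these 100 transcripts log2 tags (plus a pseudocount of 0.5) of noCre replicate 3 had a Pearson correlation of 0.766 with the log2 mean control share, and those of replicate 1 of 0.439. Each control library against the mean of the other 7 gave 0.882 to 0.960. These are descriptions over transcripts, which are not independent, and depth differs between the libraries (928 tags on the 100 transcripts in noCre replicate 3, 192 in replicate 1, and 9121 or more in the controls).

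The number of transcripts that equal numbers of tags reach was compared by exact rarefaction, the expected number listed when a library is reduced to a given number of tags. At 887 tags the controls would list 736 ± 16.3 transcripts (SD, n = 8), from 702 to 757. NoCre replicate 1 listed 684 and replicate 3 would list 705. The controls exceeded noCre by 41.0 transcripts (n = 8 and 2, two-sided exact permutation p = 0.0444 over 45 arrangements, smallest possible 0.0222). The groups overlapped, since 5 min control replicate 2, the shallowest control, was at 702. Leaving out 1 control kept the difference at 38.0 to 45.8 transcripts, with an exact permutation p of 0.0278 without that shallowest control, the smallest possible there, and 0.0556 without any other. With 1 noCre library left out the difference was 30.4 or 51.6, and the test could not go below 0.111. At 5557 tags noCre replicate 3 listed 3182 transcripts, within the 3055 to 3413 of the controls.

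The share of the 17 transcripts called lower in the controls was also read in the opto libraries, which took no part in the call. At 5 min it was 0.625% with 84614 tags, 0.523% with 98257, 0.475% with 194181 and 0.375% with 256727, so it fell in the order of depth. In the 30 min opto libraries it was 0.802% with 20456 tags, 0.776% with 29396, 0.928% with 41721 and 0.641% with 121972. There it did not fall in the order of depth, but was lowest again in the deepest library. In the controls the shares likewise did not fall in the order of depth, and at both times the deepest library had the lowest share. At 5 min it was 0.605% with 40173 tags, 0.475% with 108993, 0.520% with 208890 and 0.347% with 341445. At 30 min it was 0.465% with 81588 tags, 0.605% with 135474, 0.472% with 181115 and 0.448% with 192471. The 3 shallowest opto libraries are all from 30 min, so time and depth cannot be told apart between the opto groups, and the part of depth in these shares was not tested.

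**Figure D4:**
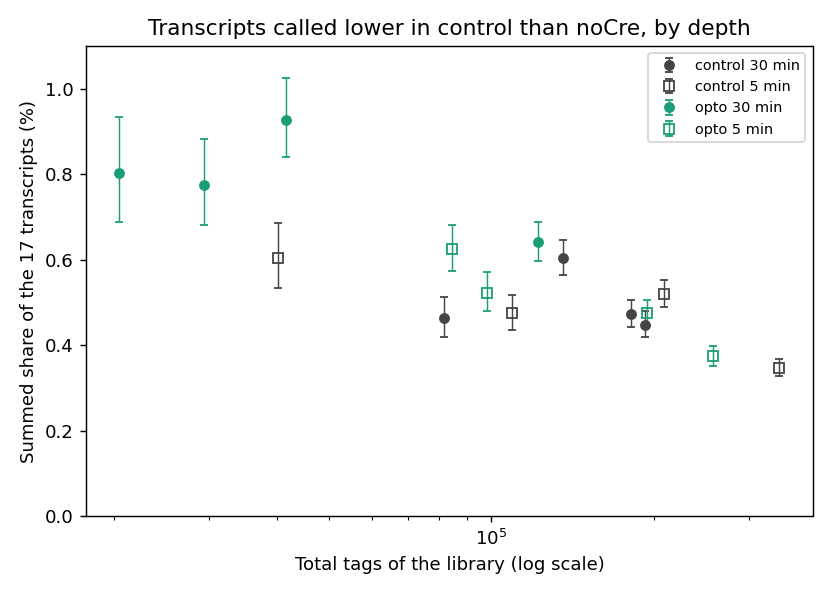
Summed share (percent, linear axis from 0) of the 17 transcripts called lower in the controls than in noCre, against total tags of the library (log axis), for the 16 Cre-positive libraries with 95% Wilson intervals. The shares run from 0.347% in the deepest control to 0.928% in an opto library of 41721 tags; noCre replicate 3, at 4.55%, is off the axis.

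Single transcripts of the 17 differed in how their tags changed with library totals. The slope of log2 tags (plus 0.5) on log2 library total over the 8 opto libraries is about 1 for a transcript with a constant share, and lower at few tags. Its median was 0.75 over the 17, the lowest 0.19, with 11 under 1, and 1.03 over all 2533 tested transcripts, of which 43.3% were under 1. The slopes pool both opto times, and the shallowest opto libraries are all from 30 min, so they do not separate depth from time. The lowest slope was that of ENSMUST00000083211, named here for it. Its share was 0.0180% to 0.0248% in the 5 min opto libraries and 0.0353% to 0.116% at 30 min. Among transcripts with a mean of at least 10 opto tags, the median was 0.86 over 16 of the 17, with 10 under 1. Over the 1952 tested transcripts at that level it was 1.03, with 42.5% under 1. ENSMUST00000083011 had a slope of 0.51. It had 1, 13, 11 and 8 tags in the 30 min opto libraries and 19, 3, 10 and 3 at 5 min, while totals ranged 12.6-fold. Over the controls its tags ranged 4.40-fold, from 5 to 22, while totals ranged 8.50-fold.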

How the data were processed

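Each library has 1 file of deposited raw tag counts by transcript, per the file headers, unnormalized and listing only transcripts with at least 1 tag. Tags were cloned by the BrdU-CLIP method, per the labels' protocols, and cutadapt, STAR and the mm10 build appear in the submitters' processing notes. Versions, annotation, treatment of duplicates and assignment to isoforms are not given in the sources used here. Ranks of transcripts are by tags, not per length.

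Libraries were grouped by title. The main test was edgeR 4.0.16 (R 4.3.3, quasi-likelihood, library totals as the only scaling, filterByExpr with a minimum count of 10 and total of 15, Benjamini-Hochberg adjusted p under 0.05) on 8 control and 3 noCre libraries. A check on simulated data required recovery only of transcripts lower in the controls, and few calls among unchanged ones. The SE is the fold change over the root of the F statistic. Shares were compared by exact two-sided permutation tests in Python 3.11.15 (numpy 2.4.6, scipy 1.17.1, pandas 2.3.3, matplotlib 3.10.9). Alternatives used DESeq2 1.42.0, limma 3.58.1, other scalings and filters, single control times and left-out libraries. The 2 transcripts with the smallest p in each direction are named. Members, lists, tests and this rule were chosen with earlier results of these data known. Gene lists were not analysed here, because no table used here pairs the IDs with genes.

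Replicate numbers are shared between the groups, but no label says that they pair libraries. Same-numbered control and noCre libraries had deviations from their group means that correlated at -0.124 to 0.165, over 0.1 in 1 of 6 pairs, and were not treated as paired.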

Additional observations from a re-analysis of the deposited data

Results flagged for a closer look

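A library far from the others of its group was found in 2 of the 33 groups of values examined, and chance gives about 1 in 20. Control 5 min replicate 2 had 30.0% of its tags on ranks above 100 up to 1000, where the other 5 min controls were at most at 28.3%. It is the shallowest control, with 40173 tags. Control 30 min replicate 3 had 0.605% of its tags on the 17 transcripts called lower in the controls than in noCre, against at most 0.472% in the other 30 min controls. The 30 min and 5 min controls did not differ in any of 11 values compared (exact permutation p from 0.114 to 1).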

How the results depend on the processing

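The depth of noCre limits every comparison of shares. On library totals 0 transcripts were higher in the controls, against 448 with TMM, 287 with DESeq2 size factors, and, in alternatives chosen after seeing the data, 398 with TMM and noCre replicate 2 left out and 193 with TMM and replicate 3 as the only noCre library. It was 0 in the other settings, DESeq2's test and limma voom included, with 2 and 6 at an unadjusted p under 0.05. The 17 lower transcripts became 4 with TMM, 4 with DESeq2 size factors, 1 with DESeq2's test, 0 with limma voom (425 at an unadjusted p under 0.05), 38 with no filter, 10 with a mean of at least 20 tags, 4 with the 5 min controls alone, 3 and 11 with the 2 added TMM settings, and 34 with replicate 3 as the only noCre library on totals. Leaving out 1 library gave 0 to 26. The median log2 fold change over tested transcripts was -2.32 with DESeq2's test and -1.76 with limma voom, of the opposite sign to 0.70. With the replicate block 14 passed, all among the 17, and 0 were higher. For the named transcripts 80 of 94 alternatives kept direction and side; with 1 library left out the 2 lower ones ran from -6.04 to 6.48 and from -3.89 to 6.81, the positive values being those without noCre replicate 3. Counts by interval moved to 145 below replicate 1 and 266 below replicate 3 with Clopper-Pearson to 49 above replicate 3 with the mean of the controls, and to 7 with near-equal transcripts kept once (12 of the 17 lower ones), also chosen after seeing the data; leaving out a control gave 434 to 444, 1129 to 1179 and 12 to 18.

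None of the class differences was past the threshold, and their signs were not stable. With 1 library left out they ran from -1.44 to 0.89 points (10 most abundant), -2.70 to 2.10 (up to rank 100), -2.54 to 3.34 (up to 1000), -1.35 to 2.09 (up to 10000) and -2.48 to 2.26 (beyond). The sign also turned with the 5 min controls alone, to 0.20 up to rank 1000 and 0.24 up to 10000, and with identical transcripts kept once, to 1.43, 0.58 and -2.51 in the last 3 classes. The difference in transcripts at equal tags was 39.8 (exact permutation p = 0.0667, the smallest that 4 against 2 libraries allow) with the 30 min controls alone, 42.2 (p = 0.133) with the 5 min controls alone, 0.228 at 34 tags (p = 0.394), and 30.4 to 51.6 with 1 library left out. The cause was not tested.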
